A study of Mus musculus with 6 samples.

Results

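Transcripts of the mitochondrial carrier family (solute carrier family 25, gene symbols Slc25a followed by a number) were measured in the kidneys of 3 wild-type and 3 homozygous mutant mice, labelled WT and KO, on 6 single-colour CodeLink oligonucleotide arrays, 1 per animal. Members were taken by symbol: probes whose platform annotation gave exactly 1 gene symbol beginning with Slc25a, with Slc25a20 left out and the probe of highest mean level standing for each gene. This gave 42 genes on 51 probes, of 18004 genes named by 1 symbol and 34937 probes in all. The sources used here do not name the mutated gene, the strain, the age or the sex, so the genotype labels could not be checked against a targeted gene. RNA came from a piece of whole kidney frozen after the vessels were flushed with saline, so that every value is an average over the cells of the tissue. In such bulk samples fewer cells of a type and less RNA per cell cannot be told apart.

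Mitochondrial carriers are small proteins that mostly lie in the inner mitochondrial membrane and exchange nucleotides, phosphate, carboxylates, amino acids and cofactors between the cytosol and the matrix. The impermeable inner membrane makes them the route by which ATP leaves, and ADP, phosphate and fuel intermediates enter. Kidney tubules, above all the proximal tubule, are rich in mitochondria because solute reabsorption consumes much ATP. The proximal tubule also makes glucose and breaks down amino acids, and several carriers supply these pathways.

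Levels are log2 intensities relative to the median of the array, and each difference subtracts the wild-type mean from the mutant mean, with the standard error (SE) of a limma fit over 25834 probes. "Rose" and "fell" are used where the Benjamini-Hochberg adjusted p over those probes was below 0.05. A low-signal limit of 0.60 log2 was set from the values themselves, and the share of values above it was 37.5% to 41.7% per array. The kidney genes Umod and Cdh16, made by the thick ascending limb and by tubular epithelium, had mean levels of 7.69 and 8.25 in wild type and 7.74 and 8.20 in mutants, all above that limit. Replicate 1 of each genotype stood apart in sex-linked transcripts. Xist was at 2.21 and 3.00 on the wild-type and the mutant array numbered 1 and between -0.85 and -0.21 on the other 4, while the Y-linked Eif2s3y was at the floor on those same arrays and between 3.01 and 3.46 on the others. By these transcripts the arrays numbered 1 read as female and the other 4 as male, although no source used here gives the sex. The female pattern is present once in each genotype. The main fit did not adjust for it, so the spread within each genotype includes it. Results were also computed from replicates 2 and 3 only.

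Of the 42 members, 36 passed the filter on low values and were tested. The 6 that were not tested, Slc25a18, Slc25a30, Slc25a34, Slc25a40, Slc25a42 and Slc25a48, lay below the low-signal limit on every array on which they had a value. Of the tested members, 30 had a mean above the limit, and 23 were above it on all 6 arrays. By limma, 1 of 36 rose and 0 fell, whereas over all 14814 genes tested 5.67% rose and 1.59% fell (7.26% in either direction). Among the 30 with a mean above the limit 1 rose and 0 fell, beside 8.16% and 2.42% of all genes above it. The gene that rose was Slc25a24, an ATP-magnesium/phosphate carrier. At an unadjusted p below 0.05, 2 of 36 were higher and 6 lower, against 14.6% and 6.29% of all genes. The difference was negative in 26 members and positive in 10, with a median of -0.16, whereas 42.5% of all genes tested had a negative difference and their median was 0.08. Among the 30 members with a mean above the limit, 24 had a negative and 6 a positive difference, with a median of -0.20. Of all genes with a mean above it, 38.4% had a negative difference, and their median was 0.10. Among the 23 members above the limit on all arrays, 19 had a negative and 4 a positive difference, with a median of -0.21.

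**Figure D1:**
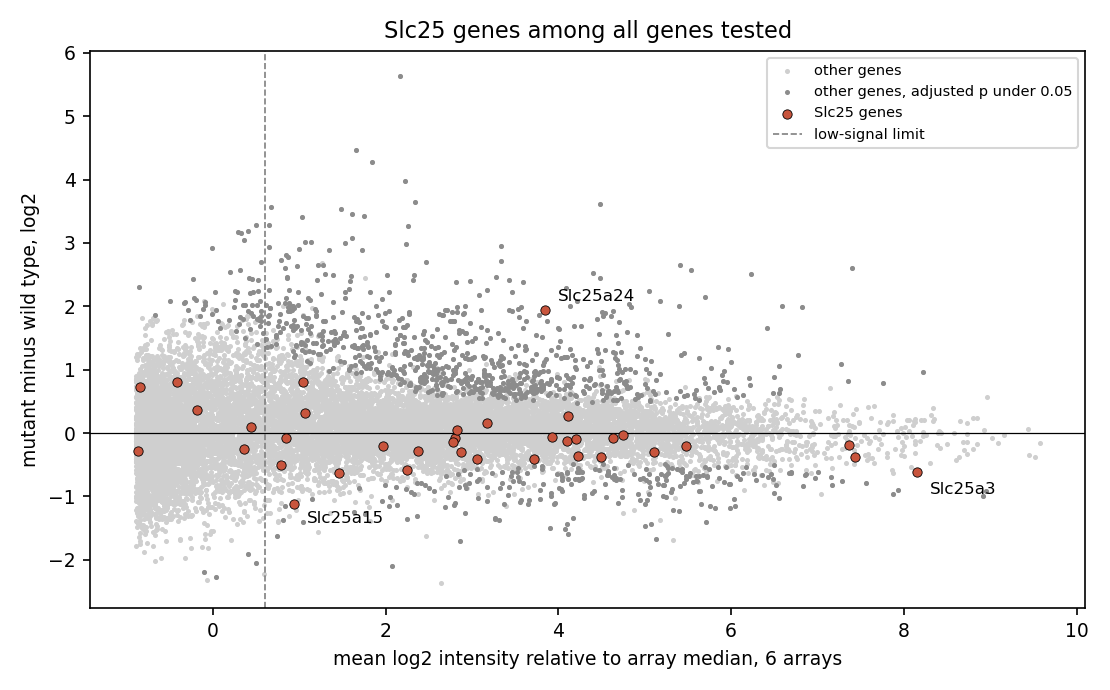
Difference between genotypes (mutant minus wild type, log2) plotted against the mean log2 intensity over 6 arrays for each gene tested, with 36 Slc25 genes in red, other genes in grey and genes past the adjusted p of 0.05 in darker grey. Slc25a24 lies at 1.94 among the genes that rose, and 26 of the 36 members lie below 0.

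Slc25a24 was the member that passed the test. This carrier exchanges ATP-magnesium for phosphate across the inner membrane, which sets the adenine nucleotide content of the matrix, and its cytosolic part binds calcium through EF-hands. Its levels were 2.75, 2.91 and 2.97 on the 3 wild-type arrays and 4.77, 4.97 and 4.70 on the 3 mutant arrays. Every mutant array was higher than every wild-type array, by more than the spread within either genotype. The difference was 1.94 ± 0.14 log2 units (SE, n = 3 per genotype), or 3.83-fold, with a 95% interval from 1.64 to 2.24 (limma, adjusted p = 3.2e-06). In the intensities as deposited, the wild-type arrays held 6.71, 7.49 and 7.80 and the mutant arrays 27.1, 31.2 and 25.9.

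A further probe for Slc25a24 gave the same direction. It read 1.47, 2.16 and 1.91 in wild type and 3.58, 3.53 and 3.28 in mutants, again with no overlap. It differed by 1.62 ± 0.20 (limma, adjusted p = 0.00021). Over 18 other settings the difference of the first probe ran from 1.82 to 1.99, and its adjusted p was at most 0.030, reached with no intensity trend in the variance.

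Marker genes of several cell types also differed between these kidneys, and their part in the rise of Slc25a24 was not tested. Beside the marker counts here and in the next paragraph, 5.67% of all genes tested rose and 1.59% fell. Of 13 tested myeloid cell markers 9 rose and 0 fell, and their summed intensity, in units of the array median, went from between 44.4 and 50.6 in wild type to between 191 and 281 in mutants. Of 12 fibroblast and pericyte markers 10 rose and 0 fell, with sums from 145 to 176 and from 514 to 543 (6 rose with no intensity trend in the variance). Col3a1 was the brightest of these markers and weighs most in that sum, with means of 5.83 in wild type and 7.82 in mutants. For comparison, the mean of the mutant arrays over that of the wild-type arrays was 3.83 for Slc25a24, 4.62 for the myeloid sum and 3.29 for the fibroblast sum. The myeloid and fibroblast sums were both highest on mutant replicate 1, at 5.84 and 3.39 times the wild-type mean. Slc25a24 was highest on mutant replicate 2 by its first probe. By its further probe it was highest on mutant replicate 1 (3.58, against 3.53 and 3.28 on mutant replicates 2 and 3). Among defining markers, the myeloid genes Adgre1, Itgam and Laptm5 had means below the low-signal limit in both genotypes, as did the fibroblast marker Thy1. Of 9 lymphocyte markers 2 rose. That count was 1 without wild-type replicate 2, wild-type replicate 3, mutant replicate 1 or mutant replicate 3, and 0 with no intensity trend. Of 6 endothelial markers 1 rose. That count became 2 when wild-type replicate 2 was left out, 0 when wild-type replicate 1 or 3 was, and 0 when mutant replicate 1 or 2 was.

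Proximal tubule markers moved the other way. Of 19 tested, 9 fell and 0 rose, and their sum went from between 2351 and 2777 to between 1346 and 1501. That sum weighs bright genes most, such as Fbp1, Miox and Pck1, with wild-type means of 9.41, 9.41 and 8.54. Slc5a2 had means below the low-signal limit in both genotypes, and Cyp2e1 differed by 0.04 ± 0.24. The number that fell was 4 without wild-type replicate 3, 3 without mutant replicate 2, 5 without mutant replicate 3 and 0 with no intensity trend in the variance. Thick limb and distal tubule markers summed to between 470 and 610 in wild type and between 527 and 645 in mutants, so that the sums overlapped. Of the 6 tested 0 rose and 1 fell, Pvalb, a calcium-binding protein of the distal convoluted tubule, by 1.44 ± 0.25 (limma, adjusted p = 0.0034). That count was 1 with each array left out in turn, and 0 with no intensity trend and with replicates 2 and 3 only.

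**Figure D2:**
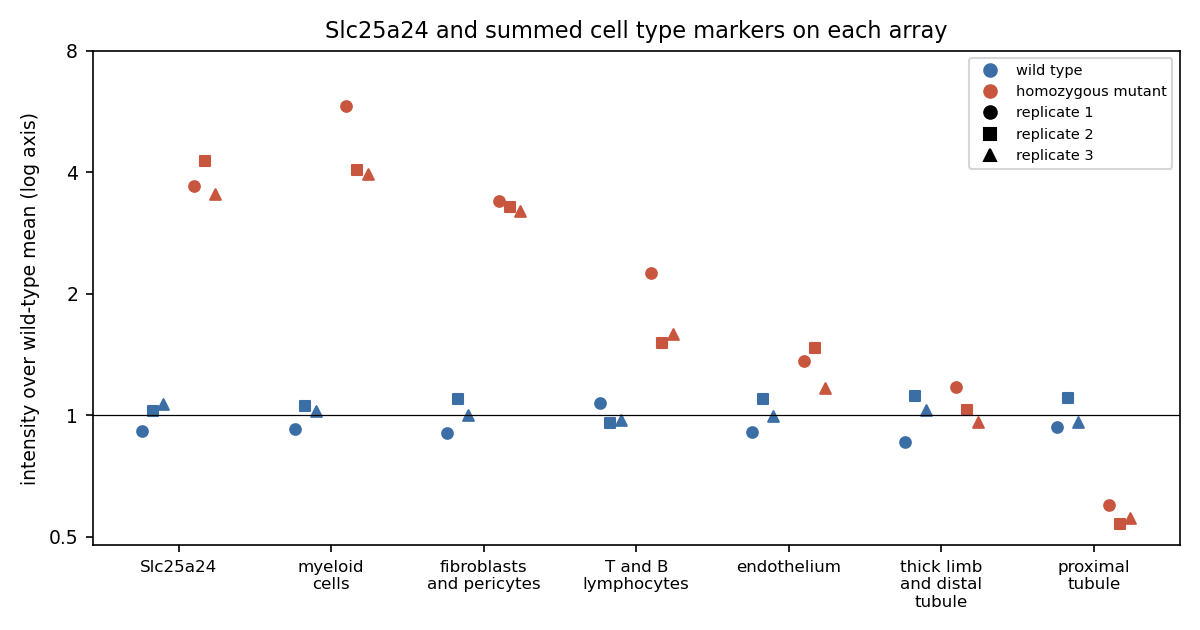
Intensity on each array divided by the wild-type mean (log axis) for Slc25a24 and for the summed markers of 6 cell types, with circles, squares and triangles for replicates 1, 2 and 3. Slc25a24 and the myeloid and fibroblast sums are above 3 on every mutant array, and the proximal tubule sum lies between 0.536 and 0.598 there.

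The bases before the start of Slc25a24 are shown beside those of Slc25a33, Slc25a3 and Slc25a5, 3 members that were lower on every mutant array without passing the test and that, like it, have 1 listed start. Each run is the 250 bases before the start of transcription in RefSeq (GRCm38.p6), 5′ to 3′ on the gene's strand, and capitals mark matches to the motifs named in the next paragraph. Slc25a24 is at chr3:109122899-109123148 on the plus strand and Slc25a33 at chr4:149774268-149774517 on the minus strand. Slc25a3 is at chr10:91123968-91124217 on the minus strand and Slc25a5 at chrX:36795347-36795596 on the plus strand. The Slc25a3 gene is annotated up to chr10:91124046, so the bases of its window nearest the listed start lie within the annotated gene.
Slc25a24: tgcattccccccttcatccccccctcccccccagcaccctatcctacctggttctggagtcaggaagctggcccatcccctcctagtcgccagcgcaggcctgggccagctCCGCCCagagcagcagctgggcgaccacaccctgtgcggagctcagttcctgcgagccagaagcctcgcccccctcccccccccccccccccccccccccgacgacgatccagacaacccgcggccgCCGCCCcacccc
Slc25a33: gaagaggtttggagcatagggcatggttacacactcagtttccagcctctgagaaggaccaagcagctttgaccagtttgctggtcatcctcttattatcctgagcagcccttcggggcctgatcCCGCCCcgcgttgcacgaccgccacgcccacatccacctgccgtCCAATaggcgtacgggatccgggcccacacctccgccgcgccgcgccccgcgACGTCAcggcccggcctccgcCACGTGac
Slc25a3: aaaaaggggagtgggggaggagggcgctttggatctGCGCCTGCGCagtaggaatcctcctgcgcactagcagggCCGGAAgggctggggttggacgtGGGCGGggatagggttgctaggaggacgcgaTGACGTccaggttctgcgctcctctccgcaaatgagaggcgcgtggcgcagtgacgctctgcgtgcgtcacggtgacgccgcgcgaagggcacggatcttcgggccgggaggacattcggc
Slc25a5: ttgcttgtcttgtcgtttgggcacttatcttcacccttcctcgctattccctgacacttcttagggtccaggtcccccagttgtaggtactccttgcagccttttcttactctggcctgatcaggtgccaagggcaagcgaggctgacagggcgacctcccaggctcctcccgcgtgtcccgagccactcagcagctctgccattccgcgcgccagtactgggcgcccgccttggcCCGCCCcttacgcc

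Slc25a24 held 2 matches to the GC box (GGGCGG), ending 134 and 7 bases before the start, beside long runs of C. Slc25a33 held a GC box, a CCAAT box (CCAAT), a cyclic AMP response element core (TGACGT) and, nearest the start, an E-box (CACGTG). Slc25a3 held an NRF1 site, an ETS core (CCGGAA), a GC box and a TGACGT core, and Slc25a5 held 1 GC box. Both strands were searched, and no matches overlapped in these 4 windows.

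Across the family, the table held 43 windows of 33 of the 42 members. The GC box was in 30 of the 43 windows (69.8%), against 32.7% of all 32851 windows of the same length. The family's windows also had more G and C, with a median of 57.2% against 52.4%. The CCAAT box was in 46.5% against 33.8%, the E-box in 16.3% against 6.02% and the ETS core in 18.6% against 12%. Shares for the NRF1 site (4.65% against 3.74%) and the TGACGT core (6.98% against 6.47%) were closer to those of all windows. An estrogen-related receptor core (AAGGTCA) was in 1 window, that of Slc25a34 (2.33% against 4.08%). An AP-1 site (TGANTCA) was in 4.65% against 6.75%, a TATA box (TATAAA) in 4.65% against 12.4%, and an NF-kB site in 0 against 0.356%. These matches describe letters only.

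The other ATP-magnesium/phosphate carriers on the array did not pass the test. Slc25a23, likewise calcium-regulated, read 4.72, 4.81 and 4.77 in wild type and 5.01, 4.75 and 4.43 in mutants, with overlapping genotypes. Its difference was -0.04 ± 0.15, with a 95% interval from -0.37 to 0.29, and did not pass. Slc25a25 read 1.81, 1.86 and 1.63 in wild type and 0.65, 1.44 and 1.33 in mutants. Each mutant array was below each wild-type array, yet the difference of -0.63 ± 0.27 did not pass (limma, adjusted p = 0.26), and it was -0.38 without mutant replicate 1, the lowest array. A further probe of Slc25a23 had means below the low-signal limit in both genotypes.

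**Figure D3:**
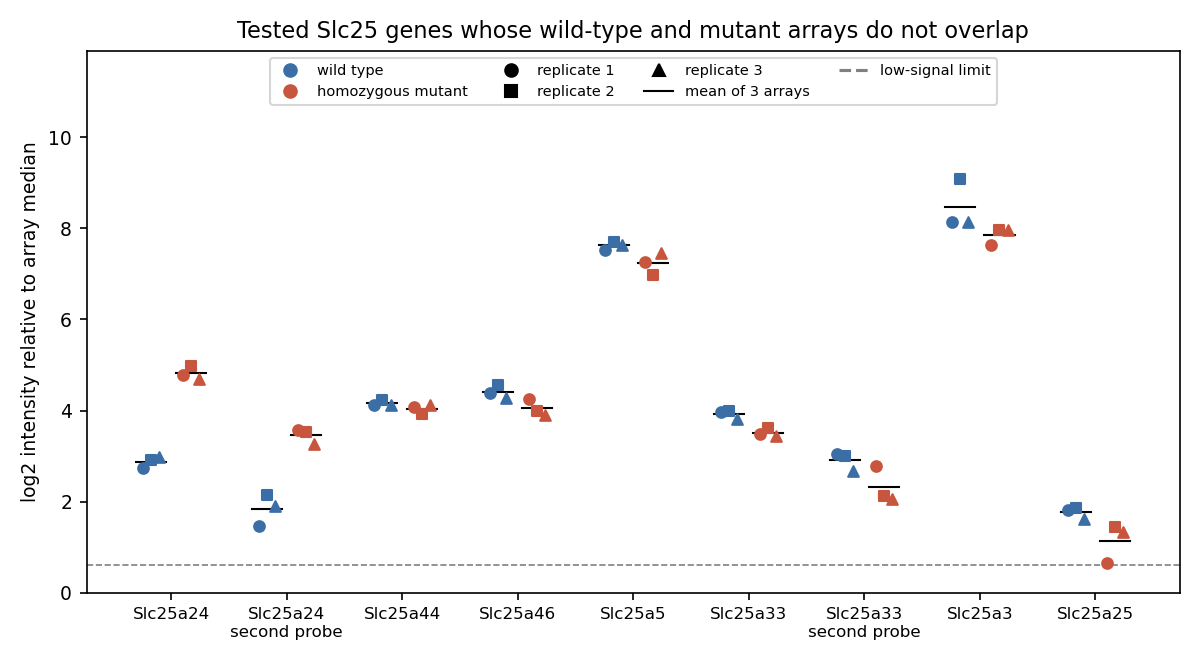
Log2 intensity relative to the array median on each array for the 7 tested Slc25 genes with values on 6 arrays whose genotypes do not overlap, with the further probes of Slc25a24 and Slc25a33, colours for genotype, symbols for replicate and bars for means of 3 arrays. Slc25a24 is higher on every mutant array on both probes, and the other 6 genes are lower on every mutant array. The untested Slc25a18, below the low-signal limit on every array, is not drawn.

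Carriers that serve ATP synthesis directly had negative differences without passing the test. Slc25a3, which brings phosphate into the matrix for ATP synthase, read 8.14, 9.09 and 8.15 in wild type and 7.63, 7.97 and 7.96 in mutants. Its genotypes did not overlap, but wild-type replicate 2 stood well above the other wild-type arrays. The difference was -0.61 ± 0.26 (limma, adjusted p = 0.24), and -0.29 without that array. Slc25a5, an ADP/ATP carrier of many tissues, read 7.53, 7.70 and 7.65 in wild type and 7.27, 6.98 and 7.47 in mutants, again with every mutant array lower. It differed by -0.39 ± 0.18 (limma, adjusted p = 0.30). Slc25a4, the ADP/ATP carrier of heart and muscle, differed by -0.19 ± 0.17 with overlapping genotypes, and Slc25a31, the carrier of the germ line, had means below the low-signal limit in both.

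ATP synthase is the enzyme these carriers supply. Of 14 listed subunit genes tested 0 rose and 0 fell by limma, with 4 lower and 0 higher at an unadjusted p below 0.05, and all 14 differences were negative, from -0.97 to -0.05 with a median of -0.29. Over all genes tested, 6.29% were lower and 14.6% higher at that p, and 42.5% had a negative difference. Of further subunit genes outside that list, Atp5mpl differed by 0.03 and Atp5md by -0.26, and neither passed. Within the list, Atp5pb was the lowest at -0.97 ± 0.30 (limma, adjusted p = 0.086). It read 8.41, 7.25 and 6.90 in wild type and 6.69, 6.32 and 6.65 in mutants, with wild-type replicate 1 well above the other wild-type arrays. Of these subunit genes 1 fell when replicate 3 of either genotype was left out, and 1 with a replicate block. The summed intensity of the 4 members for ADP, ATP and phosphate was between 625 and 935 in wild type and between 521 and 575 in mutants. The 935 was wild-type replicate 2, the array on which Slc25a3 stood high, and replicates 1 and 3 were at 625 and 681. Of these 4 members 0 passed the test.

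Carriers of nucleotides, cofactors and glutathione included the member with the smallest p among those that did not pass. Slc25a33, which carries pyrimidine nucleotides, read 3.98, 3.997 and 3.81 in wild type and 3.49, 3.61 and 3.45 in mutants. The genotypes were clear of each other, and the difference was -0.42 ± 0.14 (limma, adjusted p = 0.11). A further probe of this gene differed by -0.58 ± 0.21, with mutant replicate 1 (2.79) above wild-type replicate 3 (2.67). Scaling between arrays changed the call: Slc25a33 fell by 0.54 after quantile normalization and by 0.52 after cyclic loess (limma, adjusted p = 0.025 and 0.032), and its adjusted p was between 0.076 and 0.36 in the remaining alternatives.

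Slc25a16, tied to coenzyme A in the matrix, read 3.09, 3.44 and 3.25 in wild type and 3.13, 2.82 and 2.62 in mutants, with overlap at replicate 1. It differed by -0.41 ± 0.17 (limma, adjusted p = 0.25). Slc25a39, which imports glutathione, differed by -0.30 ± 0.16, and Slc25a17, a cofactor carrier of peroxisomes, by -0.21 ± 0.14. Slc25a51, which imports NAD, differed by -0.10 ± 0.16. Slc25a32, a folate and flavin carrier, went the other way, with 0.08, 1.33 and 0.50 in wild type and 1.66, 1.47 and 1.20 in mutants. Only 1 of its wild-type arrays was above the low-signal limit, and the difference of 0.80 ± 0.35 did not pass (limma, adjusted p = 0.26). Slc25a26, the S-adenosylmethionine carrier, had means below that limit in both genotypes.

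Enzymes of mitochondrial folate metabolism were read beside Slc25a32. Of 6 tested, 1 rose and 1 fell, beside 5.67% and 1.59% of all genes tested. Mthfd2, a folate dehydrogenase made by growing cells, rose by 1.23 ± 0.23 (limma, adjusted p = 0.0071) with a value on 2 of 3 mutant arrays, and 0 of the list rose without mutant replicate 2 or 3, in a fit restricted to probes with 6 values, or with no intensity trend. Gldc, the decarboxylase of glycine cleavage, fell by 1.04 ± 0.20. The number that fell was 0 with no intensity trend and with replicates 2 and 3 only, and 2 after quantile normalization, cyclic loess or array weighting.

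Among di- and tricarboxylate carriers 0 of 4 passed by limma, and 0 had an unadjusted p below 0.05. Slc25a21, which carries the 2-oxoadipate formed in lysine and tryptophan breakdown, read 2.08, 2.85 and 2.69 in wild type and 1.14, 2.44 and 2.28 in mutants. The genotypes overlapped because wild-type replicate 1 was low, and the difference was -0.59 ± 0.31, with a 95% interval from -1.25 to 0.08. Slc25a10, the dicarboxylate carrier, differed by -0.28 ± 0.26 with a value on 2 of 3 wild-type arrays. Slc25a1, the citrate exporter, differed by -0.08 ± 0.19, and Slc25a11, the oxoglutarate carrier, by 0.05 ± 0.27, a sign that turned after quantile normalization and cyclic loess.

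Enzymes on the same routes were read beside these carriers. Of 5 tested genes listed for lysine and 2-oxoadipate breakdown 3 fell, beside 1.59% of all genes tested. They were Aadat, by 1.67 ± 0.19, Gcdh, by 0.74 ± 0.13, and Kmo, an enzyme of tryptophan breakdown, by 1.27 ± 0.15. The other 2 had negative differences, as did 42.5% of all genes. With no intensity trend in the variance, 1 of the 5 fell. Of 5 genes for citrate export and use 1 fell, the malic enzyme gene Me1, by 0.72 ± 0.18. That call held without wild-type replicate 1 but was lost, leaving 0, without any other array, with no floor and with no intensity trend. Of these 5 differences 2 were positive, and neither passed. They were Acaca at 0.46 ± 0.145 (limma, adjusted p = 0.095) and Fasn at 0.31 ± 0.17.

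Amino acid carriers held the largest decrease in the estimates, that of Slc25a15, the ornithine carrier of the urea cycle. It read 0.80, 1.94 and 1.75 in wild type and 0.38, -0.40 and 1.16 in mutants, so that wild-type replicate 1 lay below mutant replicate 3. All wild-type arrays and 1 mutant array were above the low-signal limit. The mutant mean of 0.38 was below that limit, so the means give only a bound, of at least 1.86-fold. The difference of -1.12 ± 0.43 did not pass (limma, adjusted p = 0.18).

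Slc25a13 and Slc25a12 are the aspartate-glutamate carriers of the malate-aspartate shuttle, which moves reducing equivalents into mitochondria. Slc25a13 read 4.31, 5.06 and 4.68 in wild type and 4.56, 4.17 and 4.18 in mutants, overlapping through replicate 1 of each genotype. It differed by -0.38 ± 0.18 (limma, adjusted p = 0.32), and by -0.69 with an adjusted p of 0.037 when only replicates 2 and 3 of each genotype were used. Slc25a12 differed by -0.30 ± 0.18, while a further, dimmer probe of that gene differed by 0.19 ± 0.42. Of the 4 shuttle enzymes Got1, Got2, Mdh1 and Mdh2, 0 passed by limma, and 1 had an unadjusted p below 0.05, with a median of -0.31.

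The other amino acid carriers did not pass the test either. Slc25a44, which imports branched-chain amino acids, read 4.13, 4.24 and 4.12 in wild type and 4.08, 3.92 and 4.12 in mutants. Its genotypes did not overlap, by a margin of less than 0.01 log2, and it differed by -0.13 ± 0.13. Slc25a38, a glycine carrier needed for heme synthesis, differed by -0.08 ± 0.13, and by -0.26 ± 0.17 on its further probe. Slc25a22, a glutamate carrier, differed by 0.16 ± 0.15. Slc25a29, for basic amino acids, differed by -0.50 ± 0.37, and did not pass (limma, adjusted p = 0.56). Of its arrays 2 wild-type and 1 mutant were above the low-signal limit, and the difference was -0.18 without wild-type replicate 3. The mutant mean of Slc25a29, 0.54, was below the limit, so the means give only a bound, of at least 1.36-fold. Slc25a2, a further ornithine carrier, was below the limit on every array.

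The mitoferrins Slc25a28 and Slc25a37, which deliver iron for heme and iron-sulfur clusters, differed by -0.14 ± 0.20, with a value on 2 of 3 wild-type arrays, and by -0.21 ± 0.22. Neither passed. Of 11 genes of iron-sulfur cluster and heme synthesis 1 fell, the ferrochelatase gene Fech, by 0.49 ± 0.13 (limma, adjusted p = 0.0495), and all 11 differences were negative. Over all genes tested, 1.59% fell and 42.5% had a negative difference. The Fech call was lost, leaving 0, whenever an array was left out, except for wild-type replicate 1, and in 6 further alternatives.

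Relatives of the uncoupling proteins were dim. Slc25a14 differed by -0.08 ± 0.32 near the low-signal limit, and Slc25a27 had means below it in both genotypes. Among members of the same protein family under other names, the uncoupling protein gene Ucp1 was above the limit on 1 wild-type and 2 mutant arrays and differed by 0.51 ± 1.01. Mtch1 and Mtch2, which sit in the outer membrane, differed by 0.20 ± 0.15 and 0.02 ± 0.17.

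Of the members that sit in the outer membrane or whose substrate is not assigned here, 0 of 6 tested passed by limma, and 1 had an unadjusted p below 0.05. That member was Slc25a46, an outer membrane protein that shapes mitochondria, which read 4.39, 4.57 and 4.27 in wild type and 4.25, 3.99 and 3.91 in mutants. No mutant array reached a wild-type array, and the difference was -0.36 ± 0.14 (limma, adjusted p = 0.21). Slc25a45 read 3.76, 4.19 and 3.98 in wild type and 4.28, 4.18 and 4.24 in mutants and differed by 0.26 ± 0.14. Slc25a35 differed by -0.07 ± 0.14, and Slc25a47 by 0.32 ± 0.32. Slc25a43 and Slc25a53 had means below the low-signal limit in both genotypes.

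**Figure D4:**
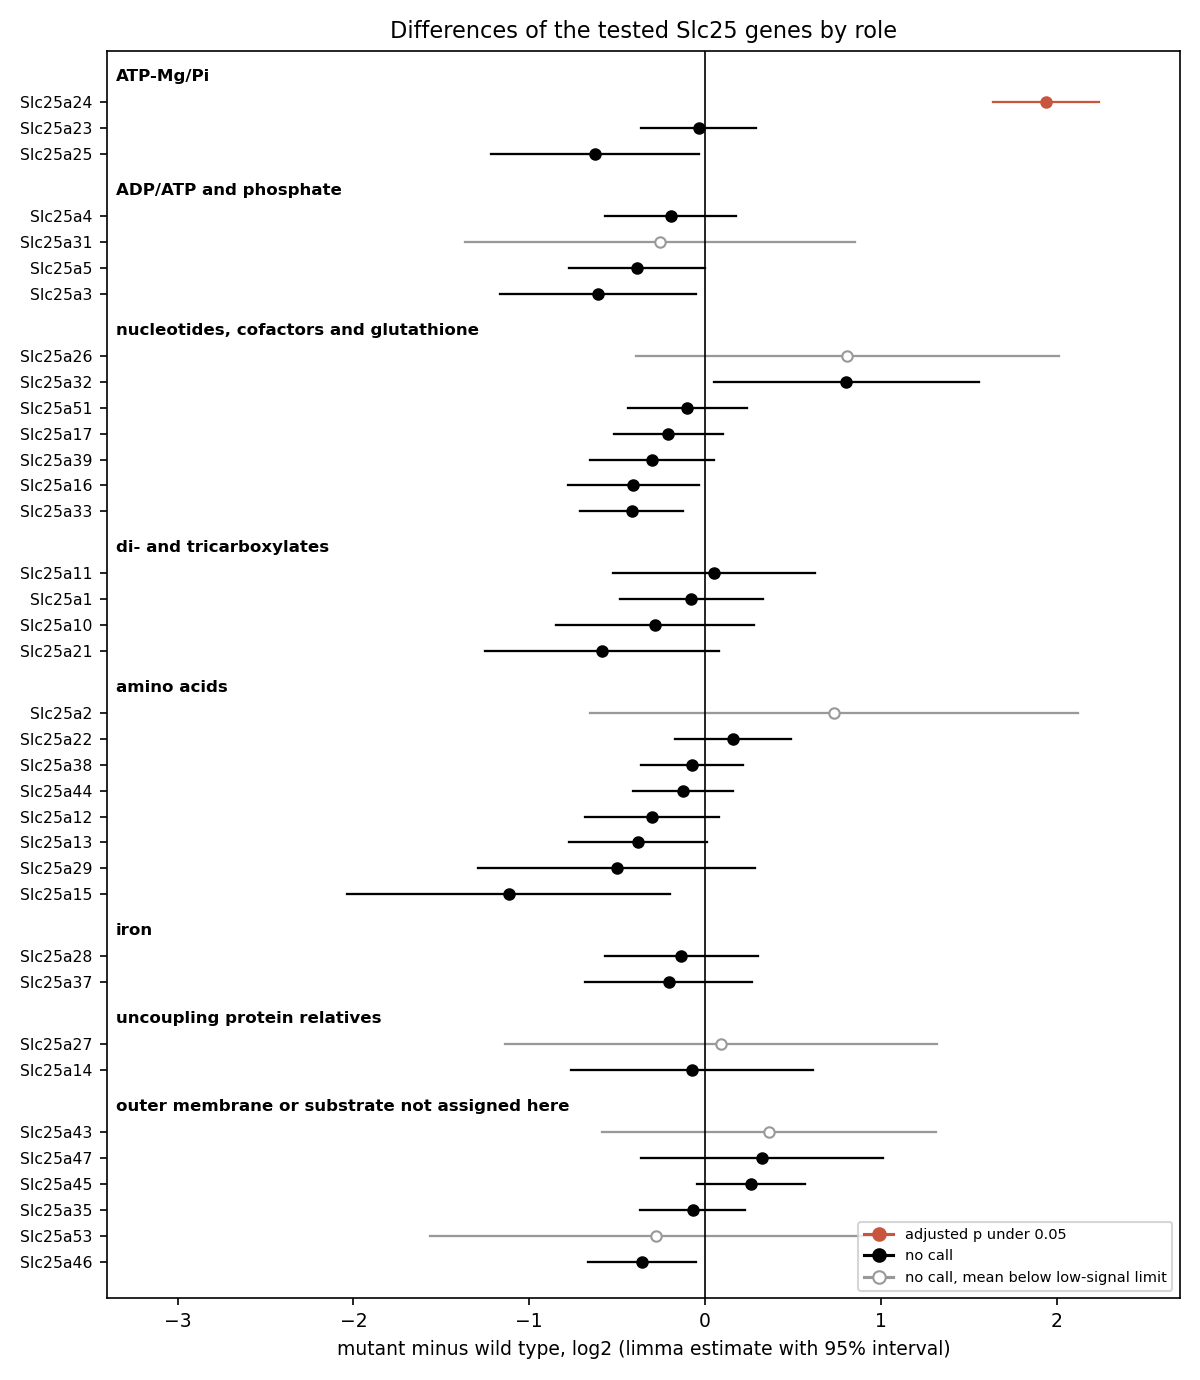
Difference between genotypes (mutant minus wild type, log2) with its 95% interval for 36 tested Slc25 genes, grouped by what they carry, with open grey points for means below the low-signal limit. The interval of Slc25a24 runs from 1.64 to 2.24, and the 35 other members did not pass the test.

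Precision set what could be seen for the members without a call. For 22 of these 35 the 95% interval lay within 1 log2 unit of 0 on both sides, and for the other 13 it reached that size or more. The half-width of the interval had a median of 0.44 and ran from 0.28 to 1.39 log2 units, widest for dim probes. Genotypes failed to overlap in 1 member that was higher and 6 that were lower, of 34 tested members with values on all arrays. The corresponding shares of all such genes were 17.8% and 8.89%. For 9 members the array carried 2 probes, and both were tested for 7 of them. The estimates had the same sign for 5 of these and opposite signs for Slc25a12 and Slc25a23. The further probe of Slc25a12 was near the low-signal limit, with means of 0.475 in wild type and 0.665 in mutants. That of Slc25a23 was below the limit in both genotypes, as were those of Slc25a47 and Slc25a51, whose signs were the same.

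Other mitochondrial transport genes also had mostly negative differences. For comparison with the counts below, 5.67% of all genes tested rose, 1.59% fell and 42.5% had a negative difference. At an unadjusted p below 0.05, 14.6% of all genes were higher and 6.29% lower. Of 14 tested genes for membrane transport outside the family 2 fell and 0 rose, Cpt2, a carnitine palmitoyltransferase, by 0.62 ± 0.16 and Vdac1, an outer membrane pore, by 0.54 ± 0.14. Their count was 0 when replicate 2 or 3 of either genotype was left out, and with no intensity trend. Of 18 genes of protein import 0 passed by limma, with 1 higher and 2 lower at an unadjusted p below 0.05 and a median of -0.08. Of 6 genes of mitochondrial calcium handling 1 fell, Mcur1, by 0.64 ± 0.16, a call lost without mutant replicate 2 or 3 or any wild-type array, or with no intensity trend, which left 0. Of 11 genes of mitochondrial biogenesis 0 passed by limma, with 1 lower at an unadjusted p below 0.05. Their median was -0.12, and Tfam, which packages mitochondrial DNA and helps start its transcription, differed by -0.02 ± 0.14.

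**Figure D5:**
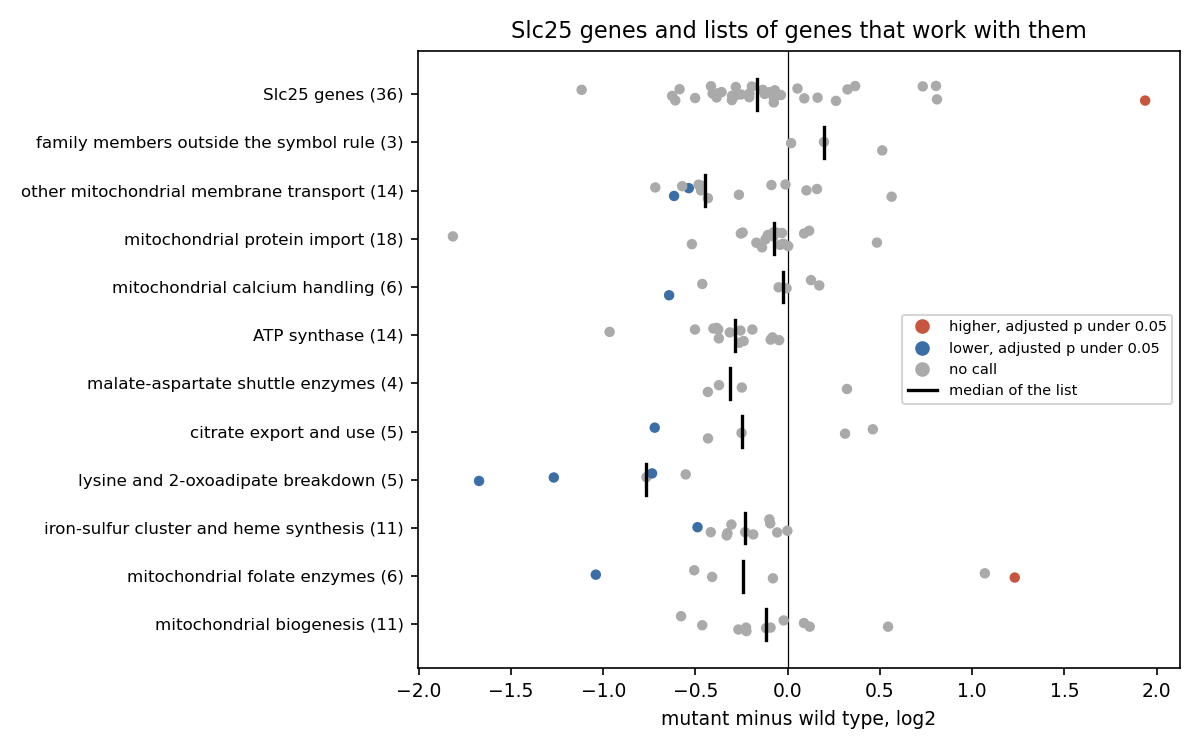
Difference between genotypes (mutant minus wild type, log2) for the Slc25 genes and 11 lists of related mitochondrial genes, each point a tested gene, bars for medians and numbers of tested genes in brackets. The Slc25 median is -0.16, the ATP synthase median -0.29 and the median for lysine and 2-oxoadipate breakdown -0.77. That last list includes Kmo, of tryptophan breakdown.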

How the data were processed

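Kidney RNA of 3 wild-type and 3 homozygous mutant mice was labelled with biotin and hybridised to CodeLink arrays, per the labels' protocols, and the series text gives a different animal for each array. The deposited table held 1 linear intensity per probe and array with medians from 0.994 to 0.997, so that the authors had already scaled the arrays. No source used here names the scanner software, background method or scaling step. The share of values that were 0 or negative was 2.66% to 3.46% per array.

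Each array was divided by its median, non-positive values were set to missing, a floor was set at the 10th percentile of what remained (0.290 of the array median), and log2 was taken. Probes with at least 2 values per genotype were kept (34445), the lowest 25% by mean level were left out, and 25834 were tested with limma 3.58.1 in R 4.3.3 (lmFit, eBayes with an intensity trend, two-sided). The low-signal limit is the mode of the linear values (0.524) plus 3 times the spread below it (0.330), or 1.51 times the array median. A mean not above it gives only a bound on that level, not on the difference between genotypes. The code was tested on simulated data.

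The members and gene lists were chosen with earlier results of these data known, so they were described by counts and medians with no test over a list. The rule for named genes gave the values on each array for members past the threshold, for Slc25a24 and for members above the low-signal limit whose genotypes do not overlap, up to 3 others per role by level, and up to 3 genes past the threshold per related list. Further genes were named after their values were seen, and the promoter motifs were chosen late too. Names come from the platform annotation, in which 2 further probes share an Slc25a symbol with another gene and were left out. All 42 members matched RefSeq by Entrez identifier, with the same symbol. Replicate numbers are not stated to pair animals, and the main fit has no replicate block.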

Additional observations from a re-analysis of the deposited data

How the results depend on the processing

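The rise of Slc25a24 held in all 18 alternative fits and probe choices and at adjusted p thresholds of 0.01 and 0.1. The count of members that fell was 0 in the main setting and at both of those thresholds, and 1 after quantile normalization, 1 after cyclic loess and 1 with replicates 2 and 3 only (Slc25a33 in the first 2, Slc25a13 in the last). The median difference of the family was negative in every alternative, from -0.24 to -0.13, and from -0.18 to -0.13 with each array left out in turn. With array scaling by quantiles or cyclic loess the share of called genes that were higher in mutants was 63.5% or 65.2%, against 78.1%. It was 96.0% with no intensity trend, where 143 genes were called higher and 6 lower, against 840 and 235. The median of all genes was -0.010 with quantiles and -0.014 with cyclic loess, against 0.080. The replicate block left 1 member higher and 0 lower, with a median of -0.16. Deviations of same-numbered arrays correlated by 0.072, 0.020 and 0.070, so the numbers were not taken as pairs, although each array correlated best with its own number.

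Of 36 tested members, 27 kept their sign in every alternative that tested them, and 9 without a call changed it. After quantile normalization and cyclic loess Slc25a11 was at -0.087 and -0.086, and Slc25a27 at -0.053 and -0.077. With replicates 2 and 3 only Slc25a14 was at 0.057, Slc25a27 at -0.34 and Slc25a31 at 0.40. With arrays left out in turn the difference ran from -0.19 to 0.096 for Slc25a1, -0.31 to 0.37 for Slc25a11, -0.23 to 0.0070 for Slc25a14, -0.18 to 0.11 for Slc25a23, -0.42 to 0.90 for Slc25a27, -0.64 to 0.28 for Slc25a31, -0.16 to 0.014 for Slc25a35, -0.13 to 0.014 for Slc25a38 and -0.49 to 0.11 for Slc25a53. The number of arrays and signal near background limit the dim members.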
